A study of Caenorhabditis elegans with 2 samples.

Results

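The genes described here are 10 secreted or membrane-bound enzymes, inhibitors and other extracellular proteins of molting: mlt-7, mlt-8, mlt-9, mlt-10, mlt-11, bli-5, nas-6, nas-36, nas-37 and acn-1. They were chosen by name, with earlier results of these data known. All 10 were found among the 19973 nuclear protein-coding genes of the annotation. ChIP-seq located NHR-25 on the genome of whole Caenorhabditis elegans larvae of the third stage (L3), in 2 samples labelled as biological replicates 1 and 2 of 1 group. The worms, of both sexes and of unstated age, were of strain OP33, which carries the unc-119(ed3) mutation and the transgene wgIs33, a source of NHR-25 with GFP and FLAG at its C terminus. No untagged or second condition was analysed here, so the only comparisons are between replicates and between genes, and none carries a test. In whole worms, strong binding in few cells and weak binding in many cells cannot be told apart.

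A nematode larva replaces its cuticle at the end of each larval stage. The epidermis secretes a new cuticle beneath the old one, proteases then loosen and open the old cuticle, and inhibitors limit that activity. Several enzymes and inhibitors named here are known from mutants or RNAi worms that fail to shed the old cuticle or that blister. NHR-25 is a nuclear receptor of the SF-1 and FTZ-F1 family that is itself needed for epidermal development and for completing molts.

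The authors deposited 4 lists on the ce11 assembly that were used here. Each replicate list and a pooled list held 30000 regions, background included, and the list that passed the irreproducible discovery rate (IDR) step held 5017 peaks. The signal of a region is the authors' own height, on a scale that the sources used here do not give. The 5017 IDR peaks were the 5017 pooled regions of highest signal, down to a signal of 42.2, so the IDR list amounts to a ranking by pooled signal. Read totals were not used here, so depth is unknown. Each gene was searched from its 3′ end to 5 kb upstream of its annotated 5′ end, and a summit, the position a list marks as the top of a region, was counted if it fell in that window.

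The 10 genes divided evenly. At least 1 IDR summit lay in the window of 5 genes (mlt-7, mlt-8, mlt-9, mlt-11 and nas-36), while mlt-10, bli-5, nas-6, nas-37 and acn-1 had none. The share of 5 in 10 compares with 29.9% of all nuclear protein-coding genes. In a narrower promoter window, which spans 2000 bp before the 5′ end and 200 bp after it, 4 genes had a summit (mlt-7, mlt-9, mlt-11 and nas-36), against 18.4% of all genes. Inside the gene itself, 2 genes had one (mlt-7 and mlt-9), against 5.77% of all genes. All 10 genes had at least 1 region of the pooled list, against 70.4% of all genes. The windows of these genes had a median length of 9540 bp, longer than the median of 7027 bp for all genes, and a longer window can hold more summits. Per length, the 10 windows carried 0.94 IDR summits per 10 kb, against 0.50 for the nuclear genome. The genome value includes sequence far from genes, and the density over the windows of all genes was not computed. Most of these summits were at mlt-7 (4) and mlt-9 (3), and the 5 genes without a summit had a density of 0.00. These shares and densities are descriptions only. With the 5017 strongest regions of replicate 2 alone, 4 genes had a summit in the gene or up to 5 kb upstream (mlt-11 lost its own) and 2 in the promoter window (mlt-7 and nas-36). The shares of all genes were then 29.4% and 17.8%, so the promoter count of 2 in 10 was near the background. The mlt-9 promoter summit was present in replicate 2, but at rank 5139 it lay just past the 5017 strongest. With the strongest regions of replicate 1 alone, the counts were 5 and 4, with acn-1 in place of mlt-11, against 29.3% and 18% of all genes.

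The 10 IDR summits were unequally spread: mlt-7 had 4, mlt-9 had 3, and mlt-8, mlt-11 and nas-36 had 1 each. By place, 5 lay upstream of the gene, 4 in introns and 1 in a coding exon. For 9 of the 10 the nearest protein-coding 5′ end was that of the member itself, and none lay inside another protein-coding gene. No share over all IDR summits is given for these places, so the counts are descriptions only. The other 46 pooled regions in these windows were below the IDR list. The map of pooled regions shows the strong summits of mlt-7, mlt-9 and nas-36 near or inside the genes and the single summits of mlt-8 and mlt-11 further upstream.

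**Figure D1:**
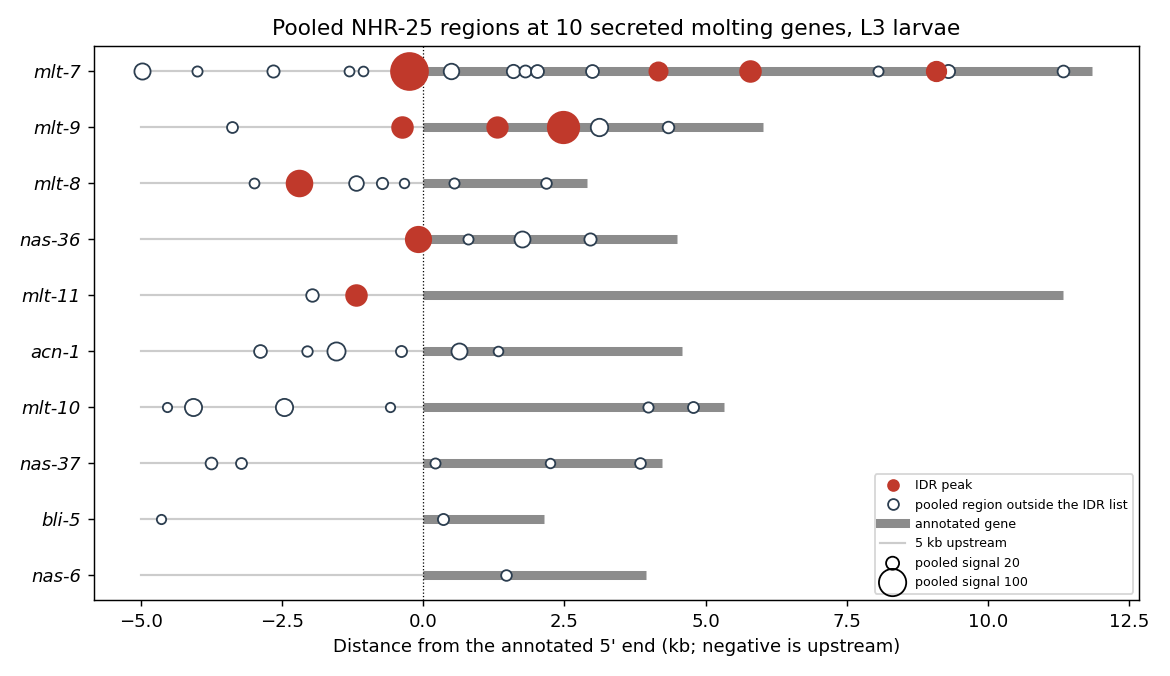
Pooled regions at each gene, by distance of the summit from the annotated 5′ end in kb, with genes ordered by their strongest pooled signal. Filled circles are IDR peaks, open circles are other pooled regions, and circle area rises with pooled signal. IDR peaks are present at 5 genes and absent from acn-1, mlt-10, nas-37, bli-5 and nas-6.

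The peroxidase gene mlt-7 carried the strongest summit of the group. MLT-7 is a heme peroxidase that acts in cuticle assembly. The gene lies on chromosome II from 4393007 to 4404850, plus strand (WBGene00022743), and its tallest region was a narrow one of 131 bp with the summit 261 bp upstream, in intergenic sequence. Its signal was 95.2 in replicate 1 (rank 360 of 30000), 91.8 in replicate 2 (rank 566) and 186 in the pooled list (rank 435). Both replicates placed it well inside their strongest regions, and the log2 ratio of replicate 2 to replicate 1 was -0.05. The whole region (chrII:4392688-4392818, plus strand) is printed below because it is the strongest site at any of the 10 genes. Capitals mark GAGAGAGA, a simple repeat, found here in 2 places by exact search.
mlt-7, 261 bp upstream: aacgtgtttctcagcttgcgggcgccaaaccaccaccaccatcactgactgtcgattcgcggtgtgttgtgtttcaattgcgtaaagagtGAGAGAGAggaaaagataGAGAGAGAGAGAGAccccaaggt
Neither the receptor half-site AGGTCA nor the core CAAGGNC, where N is any base, occurs within 200 bp of this summit.

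Further summits of mlt-7 ran through the gene and were weaker. In intron 1, 4154 bp downstream of the 5′ end, a peak had a signal of 39.4 in replicate 1 (rank 2224), 7.27 in replicate 2 (rank 16407) and 42.5 pooled (rank 4977). That summit was high in 1 replicate only, and it stands 40 ranks from the end of the IDR list. In intron 3, 5778 bp downstream, the signals were 32.8 in replicate 1, 25.3 in replicate 2 and 56.3 pooled. In a coding exon, 9086 bp downstream, they were 20.9 in replicate 1, 24.9 in replicate 2 and 49.2 pooled, and the nearest 5′ end there was that of ZK430.5, 3565 bp away. These 2 sites had like values in both replicates. The intron 3 summit is the only one of the 4 with AGGTCA within 100 bp, shown here in capitals in its reverse orientation (chrII:4398710-4398860, plus strand), 6 bp from the summit.
mlt-7, intron 3: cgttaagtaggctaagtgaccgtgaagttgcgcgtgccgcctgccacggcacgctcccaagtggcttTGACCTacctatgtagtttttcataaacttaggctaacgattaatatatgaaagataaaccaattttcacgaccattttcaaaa

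The astacin metalloproteases split into 1 gene with an IDR summit and 2 with low signal. Astacins are secreted zinc proteases, and NAS-36 and NAS-37 are known for opening the old cuticle at ecdysis. The single IDR summit of nas-36 (WBGene00003552, plus strand) lay 100 bp upstream, from 7526949 to 7527298, in intergenic sequence. Its signal was 46.0 in replicate 1 (rank 1717), 37.6 in replicate 2 (rank 2766) and 86.2 pooled (rank 2028). Both replicates held it among their 5017 strongest regions, and it was the closest to a 5′ end of the 10 IDR summits. A weaker region in intron 7 of nas-36, 1743 bp downstream, reached 32.0 pooled, with 21.2 in replicate 1 and 10.5 in replicate 2.

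By contrast nas-37 (WBGene00003553, X from 9944844 to 9949063, minus strand) had 5 pooled regions, the strongest with a signal of 15.7, 3770 bp upstream and inside the gene cysl-1. That region had a signal of 8.53 in replicate 1 and no summit within 100 bp in replicate 2. The gene nas-6 (WBGene00003525, IV from 17486842 to 17490779, minus strand), whose product acts in the pharynx, had 1 pooled region, in intron 1, with a pooled signal of 12.2. It was matched in replicate 1 (rank 8019) and not in replicate 2, whose list has no region in that window. The pooled list starts at 8.33 and has a median of 14.7. The strongest value of nas-37 thus lies slightly above that median (rank 13899 of 30000), and that of nas-6 below it (rank 18910). The nearest IDR summits lay 7497 bp from the 5′ end for nas-37, downstream of that gene and inside C17G1.5, and 17.4 kb for nas-6, 89 bp from the 5′ end of gba-3. Thus the ecdysis proteases nas-36 and nas-37 differed: 86.2 and 15.7 were their strongest pooled signals, and only the first had an IDR summit.

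The gene acn-1 fell just short of the IDR list. ACN-1 resembles angiotensin-converting enzyme but lacks the residues that bind the catalytic zinc, and it is needed for molting. Its strongest region (gene WBGene00000039, X from 5092481 to 5097067, minus strand) had its summit 1556 bp upstream, within the non-coding gene C42D8.19. The signal was 27.1 in replicate 1 (rank 3891), 15.8 in replicate 2 (rank 7260) and 42.1 pooled. Its pooled rank of 5028 is 11 places past the last IDR peak, while the intron 1 summit of mlt-7, at 42.5 pooled, is inside by 40. These neighbours in rank differ by less than the replicates of either. A second region, in a coding exon 639 bp downstream, reached 32.1 pooled, with 16.9 in replicate 1 and 12.5 in replicate 2. The nearest IDR summit lay 11.4 kb downstream of the 5′ end, in C42D8.14. The upstream region (chrX:5098548-5098698, minus strand) is printed because it holds AGGTCA, in capitals in its reverse orientation.
acn-1, 1556 bp upstream: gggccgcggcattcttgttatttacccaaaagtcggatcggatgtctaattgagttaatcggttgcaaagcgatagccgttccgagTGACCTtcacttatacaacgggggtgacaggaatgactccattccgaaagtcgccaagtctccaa

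The Kunitz-type protease inhibitors also differed, and the 1 with an IDR summit had no match for it in replicate 1. MLT-11 and BLI-5 both belong to this inhibitor class. The gene mlt-11 (WBGene00012186, V from 20667205 to 20678537, plus strand) had 1 IDR summit, 1200 bp upstream in intergenic sequence, with a pooled signal of 56.1 (rank 3647). In replicate 2 its signal was 21.0 (rank 5476), and in replicate 1 the nearest summit lay 768 bp away with a signal of 7.37. So replicate 1 holds no region at this site, and replicate 2 holds one outside its 5017 strongest. The pooled signal was 2.67 times the matched replicate signal. Across the 192 IDR peaks matched in replicate 2 only, the median of that ratio was 1.45, and 6 of them reached the value of mlt-11 or more. For the 9 matched summits of the other genes the pooled signal was 0.911 to 1.21 times the sum of both replicates. No other IDR summit lay in the 16333 bp window of mlt-11, and none inside its 11333 bp gene.

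The mlt-11 site (chrV:20665930-20666080, plus strand) is printed because it is the only one of the 10 with the extended half-site known for this receptor family, here TCAAGGTCG, 37 bp from the summit. The capitals mark its core CAAGGTC. The same stretch holds a run of 14 G.
mlt-11, 1200 bp upstream: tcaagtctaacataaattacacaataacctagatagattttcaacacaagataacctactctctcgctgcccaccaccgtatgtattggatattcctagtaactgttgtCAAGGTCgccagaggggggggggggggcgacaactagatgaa

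The blister gene bli-5 (WBGene00000255, III from 13427640 to 13429768, minus strand) had 2 pooled regions and no IDR summit. The stronger, in intron 1 at 355 bp downstream, had a signal of 7.01 in replicate 1, 6.91 in replicate 2 and 13.6 pooled. Both replicates were low there. The nearest IDR summit, with a signal of 78.5, lay 6.14 kb from the 5′ end on the 3′ side of bli-5, 115 bp from the 5′ end of exo-1.

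The remaining genes, mlt-8, mlt-9 and mlt-10, are named for the molting defects seen on loss of function. The gene mlt-9 (WBGene00008605, X from 15101786 to 15107797, minus strand) had the highest density, 2.72 IDR summits per 10 kb. Its strongest lay in intron 3, 2482 bp downstream of the 5′ end, with a signal of 67.3 in replicate 1 (rank 839), 64.3 in replicate 2 (rank 1174) and 134 pooled (rank 912). Here the replicates were nearly equal. A summit in intron 1, 1302 bp downstream, had 10.8 in replicate 1 (rank 12392), 34.5 in replicate 2 (rank 3099) and 54.9 pooled. That site was high in replicate 2 only, the opposite of the intron 1 site of mlt-7. The promoter summit, 386 bp upstream and within the non-coding gene F09B12.8 on the other strand, had 30.7 in replicate 1, 22.3 in replicate 2 and 56.2 pooled. The strongest site (chrX:15105240-15105390, minus strand) is printed as an intronic site, and the searched motifs do not occur in it.
mlt-9, intron 3: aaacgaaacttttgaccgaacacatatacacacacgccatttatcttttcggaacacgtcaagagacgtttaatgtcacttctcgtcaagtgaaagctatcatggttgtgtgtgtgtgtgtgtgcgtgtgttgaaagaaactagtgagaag

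The gene mlt-8 (WBGene00021095, II from 569210 to 572110, minus strand) had 1 IDR summit, 2201 bp upstream in intergenic sequence and so just outside the promoter window. Its signal was 42.4 in replicate 1 (rank 1981), 46.4 in replicate 2 (rank 2033) and 88.8 pooled (rank 1939). The replicates ranked it alike. A second region, 1191 bp upstream, had 21.8 in replicate 1, 5.32 in replicate 2 and 26.4 pooled, below the IDR list. The site (chrII:574236-574386, minus strand) is printed because it holds both the core CAAGGNC, 2 bp from the summit, and AGGTCA, 56 bp from it. Both are in capitals and in reverse orientation, the core as GCCCTTG and AGGTCA as TGACCT.
mlt-8, 2201 bp upstream: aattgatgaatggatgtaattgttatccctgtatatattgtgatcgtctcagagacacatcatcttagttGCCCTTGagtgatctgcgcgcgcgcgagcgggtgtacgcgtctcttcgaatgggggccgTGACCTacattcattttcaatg

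The gene mlt-10 (WBGene00015646, II from 546705 to 552032, plus strand), whose promoter is widely used in reporters of the molting cycle, had no IDR summit. Its 2 strongest regions lay 2476 and 4083 bp upstream, both inside the neighbouring gene T27A1.3. The nearer had a signal of 18.5 in replicate 1 (rank 6161), 16.9 in replicate 2 (rank 6832) and 37.8 pooled (rank 5587), while the further one had 18.1 in replicate 1, 17.6 in replicate 2 and 37.4 pooled. Both replicates gave like values just below the IDR list. Within 2000 bp upstream only a region of pooled signal 8.59, near the lowest of the list, was present, with no match in either replicate. The genes mlt-10 and mlt-8 lie 17.2 kb apart with 3 protein-coding genes between them. The 35.4 kb from the upstream end of one window to that of the other held 22 pooled regions and a single IDR summit, the one upstream of mlt-8.

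Ordered by their strongest pooled signal, the genes were mlt-7 (186), mlt-9 (134), mlt-8 (88.8), nas-36 (86.2), mlt-11 (56.1), acn-1 (42.1), mlt-10 (37.8), nas-37 (15.7), bli-5 (13.6) and nas-6 (12.2). Some neighbours in this order did not differ beyond their spread. At their strongest sites mlt-8 was below nas-36 in replicate 1 (42.4 and 46.0) and above it in replicate 2 (46.4 and 37.6), and acn-1 was above mlt-10 in replicate 1 (27.1 and 18.5) and below it in replicate 2 (15.8 and 16.9). The ranks among all protein-coding genes ran from 782 for mlt-7 to 11376 for nas-6. The median strongest signal was 49.1 for the 10 genes, against 15.4 for all genes, of which 5903 had no pooled region in the window and count as 0. The windows of the 10 genes were longer, with a median of 9540 bp against 7027 bp. Neither these medians nor the gene ranks allow for window length. None of the 10 approached the highest pooled signal of 919.6. The plot of strongest signals sets each gene on the distribution of all genes.

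**Figure D2:**
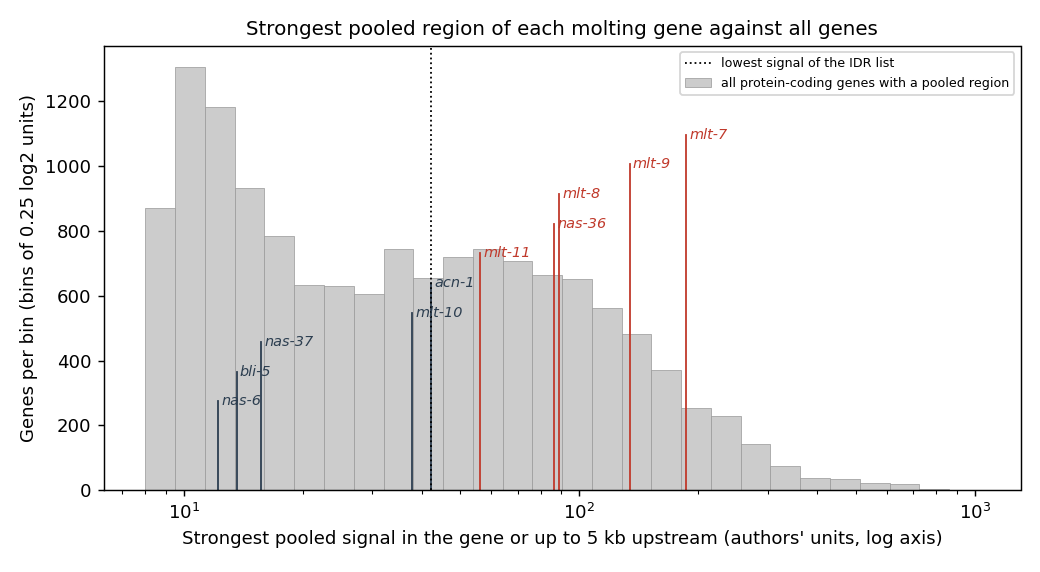
Strongest pooled signal in each gene's window (log axis, authors' units) for the 10 genes as labelled lines (red with an IDR summit, blue without) over a histogram of protein-coding genes with a pooled region. Line heights only keep the labels apart. The dotted line marks the lowest IDR signal, 42.2. The lines of mlt-7 (186) and mlt-9 (134) stand furthest right, and acn-1 (42.1) lies on the dotted line.

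Whether the 2 replicates marked the same sites at these genes was asked next. A summit within 100 bp was present in both replicate lists for 9 of the 10 IDR summits, the exception being mlt-11. Of all IDR peaks, 93.4% were matched in this way. Only 5 of the 10 were among the 5017 strongest regions of both replicates, 4 were among those of 1 replicate, and the mlt-11 summit was in neither. For all IDR peaks the share in both was 69.5%. Over the 9 matched summits, replicate 2 relative to replicate 1 gave a median log2 ratio of -0.06 (SD 1.06), from -2.44 (mlt-7, intron 1) to 1.67 (mlt-9, intron 1). Over all matched IDR peaks the median was 0.11 (SD 0.73). The member summits had a lower median pooled signal, 56.3, than all IDR peaks, 74.3. The 4 summits of highest pooled signal (mlt-7 promoter, mlt-9 intron 3, mlt-8 and nas-36) had replicate ratios between -0.29 and 0.13.

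**Figure D3:**
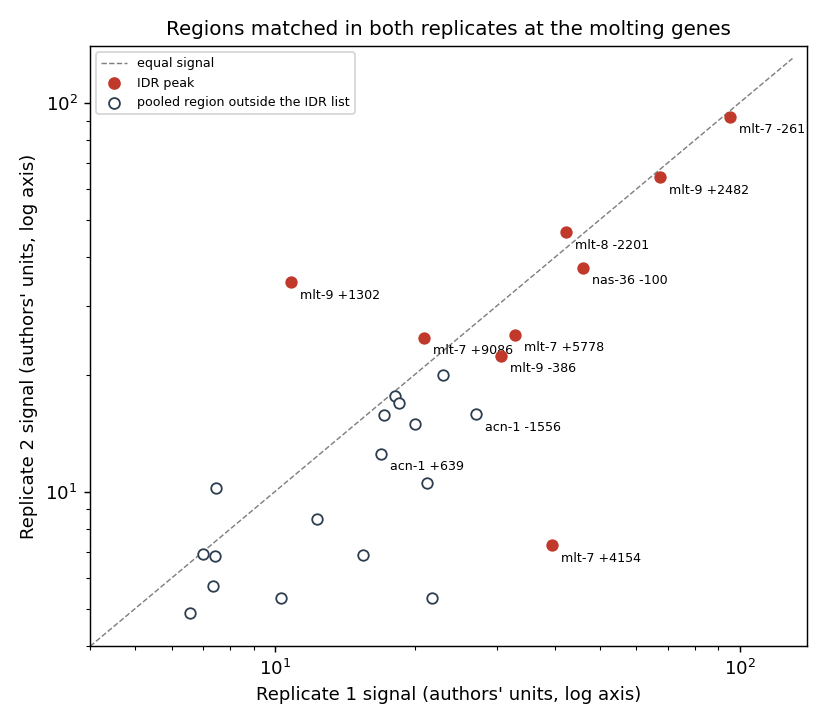
Signal in replicate 1 against replicate 2 (both log axes, authors' units) for pooled regions at the 10 genes that both replicate lists matched within 100 bp. Filled points are IDR peaks, labelled with the gene and the distance of the summit from the 5′ end in bp. The strongest points lie near the line of equal signal, and mlt-7 +4154 and mlt-9 +1302 lie far from it on opposite sides.

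Short sequence elements were searched as exact letters on both strands within 100 bp of each IDR summit. The core CAAGGNC was present at 2 of the 10 member summits (mlt-8 and mlt-11) and at 11.2% of all 5017 IDR summits. AGGTCA was present at 2 (mlt-7 intron 3 and mlt-8), against 13.2% of all. The full nine-letter form TCAAGGTCA was present at none, against 0.957% of all. The extended half-site, in which T or C precedes CAAGG and T or C, then C, then A or G follow it, was present at 1 (mlt-11), against 3.45% of all. GATAAG, the site of GATA factors, was present at 1 (mlt-11), against 10.8%, and GAGAGAGA at 2 (promoter summits of mlt-7 and mlt-9), against 11.1%. The extended half-site contains the core, and the core and AGGTCA can overlap. With 10 summits, each of these counts is a description of the printed windows and not of use by a factor. The GC content within 100 bp of the member summits had a median of 43.5%, from 33.8% to 53.2%, against a median of 41.8% for all IDR summits.

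How the secreted enzymes and inhibitors compared with other genes of the molt was described with 5 further gene lists, nhr-25 itself left out because its reads can come from the transgene. The share with an IDR summit in the gene or up to 5 kb upstream was 5 in 10 for the secreted enzymes and inhibitors. It was 38.2% for the other astacins (13 of 34) and 42.9% for the NEKL-MLT kinase complex and endocytosis genes (3 of 7). All 9 molting transcription factors had one, as did 92.9% of oxidases, a convertase and collagen-processing enzymes (13 of 14) and 83.3% of precuticle matrix genes (10 of 12). All compare with 29.9% of all genes. The lists were small, chosen with earlier results of these data known, and not tested against each other. Their windows also differed in median length, and a longer window can hold more summits. The medians were 9540 bp for the 10 genes, 7686 bp for other astacins and 9248 bp for endocytosis genes. They were 11555 bp for transcription factors, 9720.5 bp for processing enzymes and 9602 bp for precuticle genes. With the 2508 strongest IDR peaks, which marked 18.3% of all genes, the counts were 4 of 10 for the secreted enzymes and inhibitors, 7 of 14 for processing and 5 of 12 for precuticle genes, so most of the difference between these lists was gone. All 9 transcription factors still had one. Precuticle genes numbered 6 where the upstream window ended at the next gene, endocytosis genes 1 with a 2 kb upstream limit, and other astacins 8 where each summit was given to the nearest 5′ end only. The 10 genes then counted 5, 4 and 5, against 20.4%, 21.5% and 17.8% of all genes. In the promoter window the 10 genes had a summit in 40.0%, against none of the 7 endocytosis genes, 26.5% of other astacins, 58.3% of precuticle, 64.3% of processing and 66.7% of transcription factor genes. The median strongest pooled signal was 49.1 for the 10 genes, 27.8 for other astacins, 31.5 for endocytosis genes, 176 for transcription factors, 78.1 for processing enzymes and 69.4 for precuticle genes.

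Among the other astacins the strongest IDR summits were 1579 bp upstream of nas-7 (359 pooled, 153 in replicate 1 and 206 in replicate 2), 1815 bp upstream of nas-12 (253) and 2655 bp upstream of nas-30 (172). The nas-7 signal was thus above that of any of the 10 genes, and the nas-12 summit lay nearer to the 5′ end of C24F3.2, 331 bp away. For endocytosis the strongest were at nekl-3, a NIMA-related kinase gene (347, although 241 bp from the 5′ end of F17E5.2), dab-1, an adaptor gene (160, in intron 1), and lrp-1, a megalin-like receptor gene (104). The transcription factors were led by the zinc-finger gene ztf-6 (296), blmp-1 (232) and the nuclear receptor gene nhr-23 (232, in intron 2). Processing enzymes were led by pdi-2, a protein disulfide isomerase gene (176), the proprotein convertase gene bli-4 (167) and adt-2, an ADAMTS protease gene (138). Precuticle genes were led by pan-1 (271), let-4 (197) and sym-1 (144), which encode proteins with leucine-rich repeats. In pooled signal the peroxidase gene mlt-7, at 186, was above every gene of the processing list. The replicates did not agree on this order. The mlt-7 summit was above those of pdi-2 and bli-4 in replicate 1 (95.2 against 69.7 and 71.6). In replicate 2 it was below both (91.8 against 103 and 98.5).

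**Figure D4:**
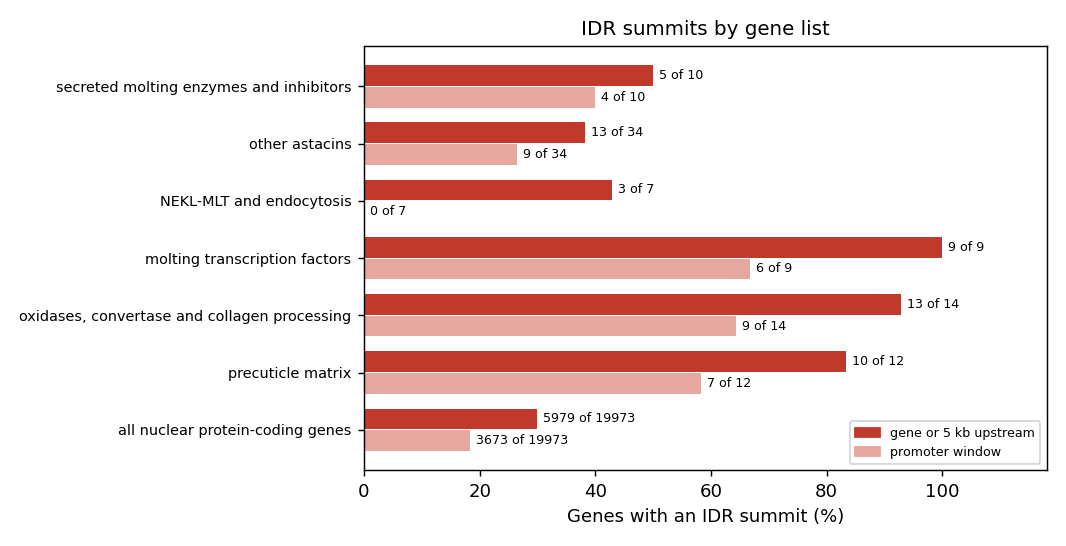
Percent of genes in each list with an IDR summit in the gene or up to 5 kb upstream (dark bars) and in the promoter window (light bars), with counts at the bars. The 10 secreted molting genes (5 of 10) are at the top and all nuclear protein-coding genes (5979 of 19973) at the bottom. The bars of transcription factors (9 of 9) and processing enzymes (13 of 14) are the longest.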

How the data were processed

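ChIP-seq peak lists of 2 L3 samples of 1 group were used. Per the labels, chromatin was sonicated. The deposited index text derives every replicate list from that replicate's alignment plus a control, the pooled list from the combined alignments plus the control, and the IDR list from those 3 lists. The aligner, peak caller and IDR threshold were not given in the sources used. Each deposited signal is the authors' height per peak and was used to rank and describe regions only. The replicate lists shared no identical interval, and both samples were kept. Depth is unknown, and no floor or interval based on reads is given.

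Coordinates are ce11, 1-based. Genes were taken from Ensembl release 115 (WBcel235) and sequence from the RefSeq genome of that assembly. All pooled regions ended inside the 6 reference chromosomes. Introns were numbered from the 5′ end over merged exons of all transcripts. Annotated 5′ ends were used, although trans-splicing can hide the true start. A replicate region matched where its summit lay within 100 bp, the strongest being taken. Window assignment was tested on simulated summits. Python 3.11.15 and numpy 2.4.6 were used.

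The members, lists and windows were chosen with earlier results of these data known. All members and their IDR summits are named, with the 3 genes of strongest IDR summit from each further list. The extended half-site was added after seeing the data. No test was made, since there is 1 group. Alternatives were the windows, the assignment, a stricter list of the 2508 strongest IDR peaks, each replicate alone, match distances and search widths. Protein features and ce10 lists were not analysed here.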

Additional observations from a re-analysis of the deposited data

How the results depend on the processing

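Of 155 recomputed values, 134 stayed within 1.5 times the reported count or within the spread of the summits. Members without an IDR summit are among these, and settings that only take summits away could not change their counts. With the 2508 strongest IDR peaks, 4 summits remained in the windows of the members, all 4 matched in both replicates, and 2 members had one in the promoter window. The background shares then were 18.3% and 10.6%. Given to the nearest 5′ end only, summits marked 17.8% of all genes while 5 members kept theirs, and with 500 bp upstream 3 members had a promoter summit (mlt-11 lost its own), against 11.2% of all genes. Leaving out 1 replicate gave 2 to 4 members with a promoter summit. Without replicate 1, mlt-9 (rank 5139 in replicate 2) and mlt-11 (rank 5476) lost theirs. Without replicate 2, mlt-11 lost its summit and acn-1 gained one. In the gene or up to 5 kb upstream the count was 4 without replicate 1 and 5 without replicate 2. The shares of all genes were 29.4% and 29.3%. The mlt-8 summit was lost with an upstream limit of 2 kb. The search with the extended half-site, chosen after seeing the data, gave 1 summit in place of 2. The causes were not tested. No paired analysis was possible because the samples form a single group. Depth and enrichment over input are unknown.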
